A study of Mus musculus with 16 samples.

Results

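Diacylglycerol is the lipid through which an antigen receptor or pre-TCR engages Ras and protein kinase C, and 7 genes that make, remove or read it, or that act beside it, were followed here through thymocyte development with and without PKBα. They were *Plcg1*, *Dgka*, *Dgkz*, *Rasgrp1*, *Prkcq*, *Sos1* and *Cbl*, taken by symbol from the array annotation, which gives them 19 of 45101 probe sets, none of them shared with another gene, out of 18194 annotated genes. The genes were chosen by name with earlier results of these arrays in view, so their levels and changes stand as a description. The p values beside them, unadjusted or adjusted over all probe sets tested, are no independent support, and neither are the intervals and counts. Which measured values lay behind the choice is not recorded, and no threshold was set.

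Phospholipase Cγ1 cleaves a membrane phospholipid below the receptor and releases diacylglycerol. RasGRP1 and protein kinase Cθ bind that diacylglycerol, the first to load Ras with GTP and the second to drive NF-κB, while diacylglycerol kinases turn it into phosphatidic acid and so end the signal. SOS1 loads Ras with GTP by another route, through the adaptor GRB2, and CBL is a ubiquitin ligase that marks activated receptors and kinases for degradation. In the thymus this pathway carries the pre-TCR signal by which DN3 cells pass β-selection.

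DN3 and ISP8 thymocytes were sorted from 4 PKBα-/- mice and from their 4 PKBα+/+ (wild-type) littermates on a C57Bl/6 backcross, so that 8 mice contributed both subsets, on 16 arrays. ISP8 cells, sorted as positive for CD8 and negative for CD4 and CD3, come after DN3 cells and before the double positive stage, whereas DN3 cells lack lineage markers, carry CD25 and are low for CD44. The littermate pairs were a 3-week female pair, a 3-week male pair, a 2-week male pair and a 5-week female pair, and values of the 4 mice of a group are given in this order. PKBα was missing from every cell of the mutant mice, stroma included, and between 7000 and 25000 cells were sorted per sample, in equal numbers within a pair. The values are GC-RMA estimates on a linear scale, so that levels can be compared between arrays for a probe set but not between probe sets. In such bulk samples fewer cells of a type and less RNA per cell cannot be told apart. The labels number all ISP8 arrays before all DN3 arrays, and array number and subset cannot be told apart.

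*Akt1*, which encodes PKBα, was near background in all mutant samples at the probe set 1416657_at, with 4.87 to 6.81 in ISP8 and 2.01 to 27.3 in DN3 cells, against 1628 to 2211 and 1198 to 2007 in the wild-type samples of these subsets. Of the 5 genes of the ISP8 list, *Cd8a* and *Cd8b1* were higher in ISP8 cells in both genotypes and *Cd4* in PKBα-/- mice, *Ccr9* passed in neither and *Cd24a* was lower in both (-0.38 and -0.25). *Cd8a* averaged 5968 in PKBα-/- and 5924 in wild-type ISP8 cells, against 150 and 246 in DN3 cells of the same genotypes, and 7 of 7 DN3 genes (*Il2ra*, *Ptcra*, *Rag1*, *Notch1*, *Notch3*, *Hes1* and *Dtx1*) were lower in ISP8 than in DN3 cells in both genotypes. Of the lists for other cells, the 6 B cell genes summed to 357 to 612 in ISP8 and 1230 to 1405 in DN3 cells. Most of the DN3 sum came from *Cd79b*, at 1102 in PKBα-/- and 1177 in wild-type DN3 cells, against 261 and 257 in ISP8 cells. *Cd79a* averaged at most 28.3 in a group. The 3 γδ T cell genes measured (*Sox13*, *Blk* and *Cd163l1*) summed to 282 to 698 in ISP8 and 964 to 4881 in DN3 cells, and the 8 dendritic cell and macrophage genes to 468 to 1375 and 786 to 1482. *Cd163l1* was also higher in PKBα-/- than in wild-type DN3 cells, at 2439 ± 1293 and 1207 ± 1181 (SD, n = 4), by 1.29 on the log2 scale in 4 of 4 pairs (adjusted p = 5.4e-04, limma). It was the only 1 of the 3 γδ T cell genes to pass there, and the 3 ran from -0.28 to 1.29, with a median of 0.26. Of the 5 NK cell genes *Gzma* averaged 12304 to 18440 over the 4 groups and *Ncr1* 14.3 to 34.7. From DN3 to ISP8 cells 2 of 4 NK cell genes tested rose in PKBα-/- and 3 of 5 in wild-type mice, and 0 fell (limma). Of the 8 dendritic cell and macrophage genes 1 rose and 2 fell in PKBα-/- mice, and 2 rose and 3 fell in wild-type mice. Over all genes 14.2% rose and 19.1% fell in PKBα-/- mice, and 14.1% and 19.8% in wild-type mice. The 3 erythroid genes summed to at most 157, the 7 thymic epithelium genes to 192 to 444 in ISP8 and 1333 to 1951 in DN3 cells, and the 5 mature T cell genes to 1033 to 1719 and 6518 to 8167. Between genotypes 0 dendritic cell and macrophage genes passed. An unadjusted p under 0.05 (limma) was found for 4 of 8 in DN3 and 1 of 7 in ISP8 cells, beside 5.11% and 6.53% of all genes. The part of these lists in the changes of the 7 genes was not tested.

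*Plcg1* and *Prkcq* were lower in ISP8 than in DN3 cells in both genotypes, and *Dgka*, *Sos1* and 1 of 2 strong *Cbl* probe sets were lower in wild-type mice, whereas *Rasgrp1* was higher in PKBα-/- mice and *Dgkz* passed in neither. A call in 1 genotype alone is no difference between genotypes, and the test of that difference passed for 0 of the 7 genes (limma). It gave 0.32 for *Dgka* (95% interval -0.066 to 0.71), 0.23 for *Sos1* (-0.057 to 0.52) and 0.14 for *Rasgrp1* (-0.18 to 0.45). In PKBα-/- mice 2 of the 7 genes fell and 1 rose, beside 19.1% of all genes that fell and 14.2% that rose in ISP8 cells, and the median change of the 7 genes was -0.26 on the log2 scale, against -0.033 over all genes. In wild-type mice 5 of 7 fell and 0 rose, beside 19.8% and 14.1% of all genes, with medians of -0.49 and -0.054. In PKBα-/- mice the subset ranges did not overlap for 2 of 7 genes, 1 above and 1 below, beside 12.6% and 17.3% of all genes, and in wild-type mice for 3 of 7, all below, beside 17.9%. Each gene was read at its probe set with the highest mean, and genes were called at an adjusted p of 0.05 in limma with the mouse as a block.

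**Figure D1:**
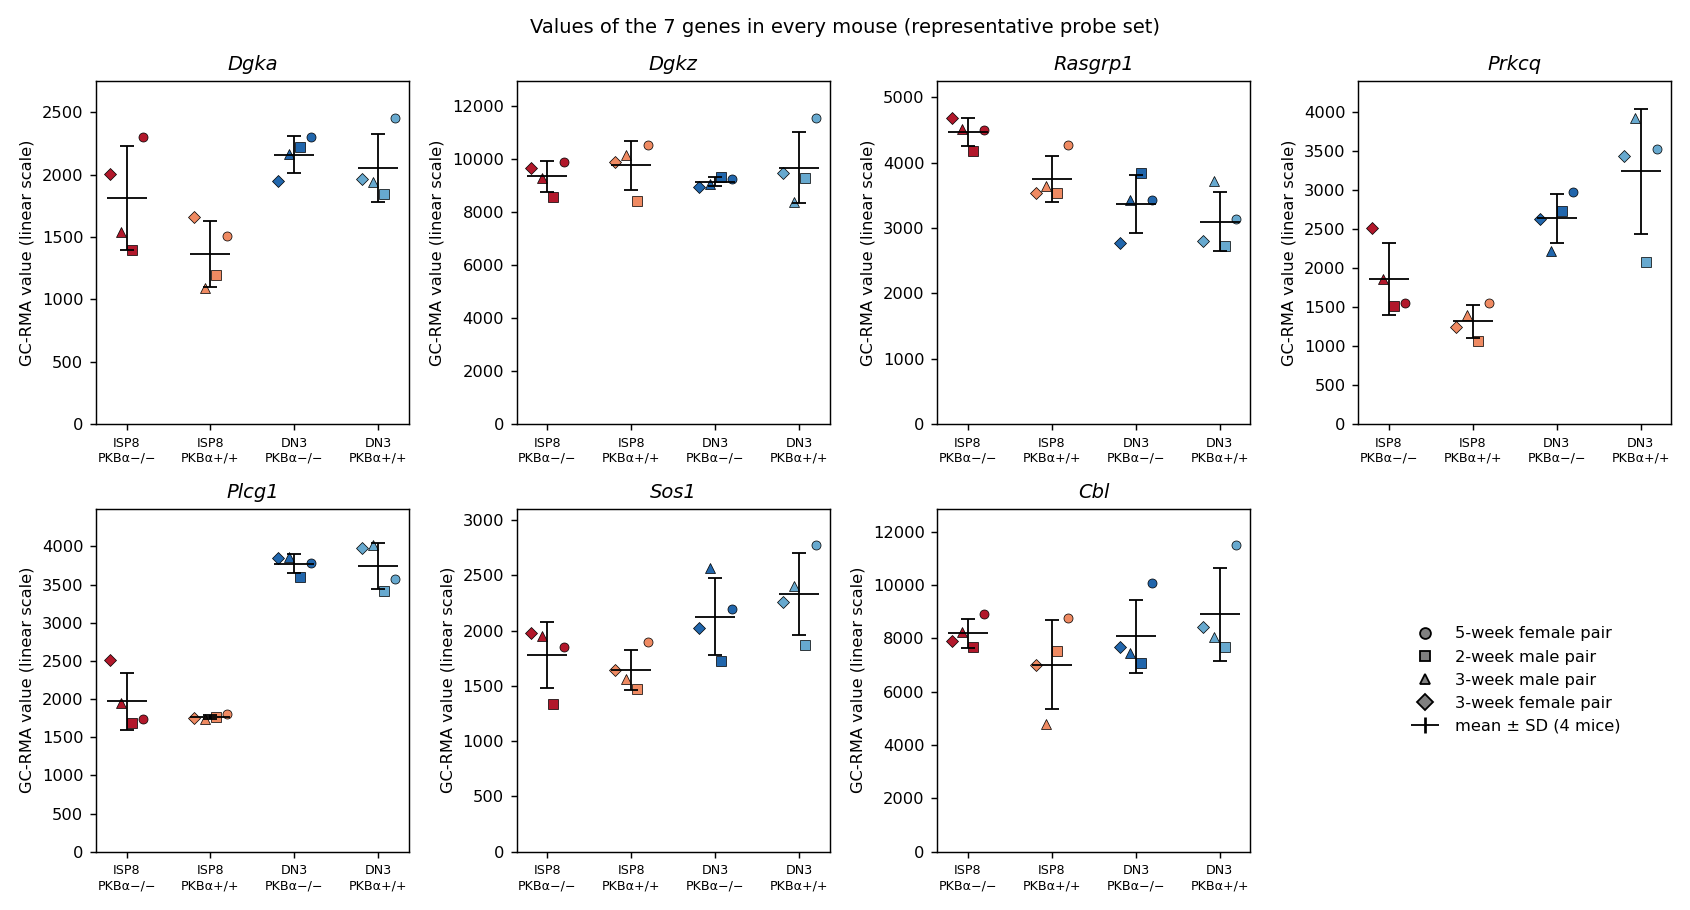
GC-RMA value (linear scale, from 0) of the representative probe set of each of the 7 genes in the 4 groups, PKBα-/- left of PKBα+/+ and ISP8 left of DN3. Points are mice, with a shape for each littermate pair, and bars give the mean and SD of 4 mice. *Plcg1* lies between 1686 and 2511 in ISP8 cells and between 3410 and 4012 in DN3 cells.

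*Plcg1*, the source of diacylglycerol below the receptor, separated the subsets in both genotypes. In PKBα-/- mice it read 2511, 1945, 1686 and 1745 in ISP8 cells, against 3854, 3863, 3594 and 3786 in DN3 cells, and in wild-type mice 1754, 1743, 1761 and 1803 in ISP8 cells, against 3985, 4012, 3410 and 3578 in DN3 cells. Every ISP8 value lay below every DN3 value, and the wild-type ISP8 mice, at 1765 ± 26 (SD, n = 4), were nearly alike. The log2 change was -0.95 ± 0.10 (SE, n = 4 mice) in PKBα-/- mice and -1.08 ± 0.10 in wild-type mice, or 1.94-fold and 2.12-fold lower (adjusted p = 7.0e-06 and 4.0e-06, limma). These values come from the probe set 1435149_at. The other *Plcg1* probe set that was tested, 1442963_at, read only 30.8 to 136 and had changes of 0.61 (adjusted p = 0.243) and 0.65 (adjusted p = 0.237), and the remaining one, 1450360_at, read 1.41 to 41.3 and entered no test. When the 3 were averaged, the change of *Plcg1* was -0.35 in PKBα-/- and -0.51 in wild-type mice and no longer passed (adjusted p = 0.479 and 0.296).

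*Prkcq* encodes protein kinase Cθ and has a single probe set here. In PKBα-/- mice it read 2514, 1862, 1511 and 1557 in ISP8 cells, against 2628, 2225, 2729 and 2978 in DN3 cells, where the 3-week female ISP8 sample overlapped the DN3 range. In wild-type mice it read 1246, 1396, 1070 and 1554 in ISP8 cells, against 3440, 3932, 2084 and 3532 in DN3 cells, with no overlap. The fall was -0.53 ± 0.14 (adjusted p = 0.00919, limma, 4 of 4 mice lower) in PKBα-/- mice and -1.28 ± 0.12 (adjusted p = 3.7e-06, 4 of 4) in wild-type mice. Without the 2-week pair the PKBα-/- value was -0.42 (adjusted p = 0.0594) and without the 5-week pair -0.39 (adjusted p = 0.0715), so that this call rested on each of these pairs. Single mice ranged from -0.94 to -0.064 in PKBα-/- and from -1.49 to -0.96 in wild-type mice, so that the nearest values were -0.94 and -0.96. The difference between the genotypes did not pass (adjusted p = 0.961, limma).

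Of the diacylglycerol kinases, *Dgka* passed between wild-type subsets and *Dgkz* in neither genotype. *Dgka* encodes DGKα, an isoform that restrains Ras in T cells, and read 2008, 1543, 1397 and 2300 in PKBα-/- ISP8 cells, against 1952, 2164, 2222 and 2300 in PKBα-/- DN3 cells. In wild-type mice it read 1662, 1094, 1192 and 1510 in ISP8 cells, against 1968, 1942, 1846 and 2456 in DN3 cells. Wild-type subsets did not overlap, and the change there was -0.60 ± 0.12 (adjusted p = 0.00233, limma), or 1.52-fold lower. In PKBα-/- mice the 3-week female and the 5-week female mouse had almost the same *Dgka* level in both subsets, and the change of -0.28 ± 0.13 did not pass (adjusted p = 0.121).

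*Dgkz* encodes DGKζ, the other main isoform of T cells. It read 9683, 9296, 8574 and 9880 in PKBα-/- ISP8 cells, against 8949, 9057, 9327 and 9257 in PKBα-/- DN3 cells, and 9911, 10180, 8417 and 10552 in wild-type ISP8 cells, against 9486, 8401, 9276 and 11567 in wild-type DN3 cells. All 4 groups overlapped. The changes were 0.031 (95% interval -0.12 to 0.18, adjusted p = 0.791) in PKBα-/- and 0.017 (-0.17 to 0.21, adjusted p = 0.915) in wild-type mice. At this probe set a change of more than 0.21 in either direction lay outside both intervals. The weaker *Dgkz* probe set, 1426738_at, with 443 to 767 units, had changes of 0.055 and -0.23 and did not pass either (adjusted p = 0.837 and 0.296). Its intervals were wider, at -0.27 to 0.38 in PKBα-/- and -0.55 to 0.095 in wild-type mice.

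*Rasgrp1*, the exchange factor that carries diacylglycerol signals to Ras, was the only one of the 7 to rise in ISP8 cells at its representative probe set. It read 4688, 4515, 4184 and 4499 in PKBα-/- ISP8 cells, against 2766, 3433, 3840 and 3432 in PKBα-/- DN3 cells, without overlap. In wild-type mice it read 3537, 3651, 3535 and 4274 in ISP8 cells, against 2802, 3714, 2732 and 3139 in DN3 cells, where the 3-week male DN3 sample reached into the ISP8 range. The change was 0.42 ± 0.10 (adjusted p = 0.00555, limma) in PKBα-/- mice, or 1.34-fold higher, and 0.28 ± 0.10 (adjusted p = 0.06) in wild-type mice. The wild-type change passed in 1 of 11 alternatives, at 0.38 without the 3-week male pair (adjusted p = 0.0134), and was 0.23 without the 5-week pair (adjusted p = 0.21). The 3 other *Rasgrp1* probe sets, with 42 to 246 units, had positive changes of 0.30 to 0.73 in PKBα-/- and 0.24 to 0.55 in wild-type mice, and none of them passed.

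*Sos1* read 1976, 1948, 1338 and 1850 in PKBα-/- ISP8 cells, against 2022, 2561, 1724 and 2194 in PKBα-/- DN3 cells, and 1645, 1561, 1475 and 1900 in wild-type ISP8 cells, against 2262, 2403, 1872 and 2769 in wild-type DN3 cells. Each of the 8 mice had less *Sos1* in ISP8 than in DN3 cells, although the ranges overlapped in both genotypes. The change was -0.26 ± 0.10 (adjusted p = 0.0758, limma) in PKBα-/- and -0.49 ± 0.11 (adjusted p = 0.00362) in wild-type mice. The 4 further *Sos1* probe sets read 1.15 to 191, none passed, and with all 5 averaged the change turned to 0.14 in both genotypes (adjusted p = 0.735 and 0.745).

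*Cbl* had 2 strong probe sets, and they did not move alike. At 1455886_at it read 7907, 8236, 7689 and 8931 in PKBα-/- ISP8 cells, against 7692, 7437, 7065 and 10093 in PKBα-/- DN3 cells, and 6987, 4793, 7517 and 8759 in wild-type ISP8 cells, against 8443, 8040, 7680 and 11483 in wild-type DN3 cells. The wild-type change was -0.36 ± 0.10 (adjusted p = 0.0191, limma), lower in 4 of 4 mice, and the PKBα-/- change was 0.033 ± 0.074 (adjusted p = 0.794). The low 3-week male ISP8 value of 4793 weighed on the wild-type call, which was -0.23 (adjusted p = 0.0815) without that pair and -0.35 (adjusted p = 0.0593) without the 5-week pair. It was also lost without the mouse as a block (adjusted p = 0.143).

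At the *Cbl* probe set 1434829_at the values were 6959, 6705, 6982 and 7580 in PKBα-/- ISP8 cells, against 5166, 5854, 5298 and 6475 in PKBα-/- DN3 cells, and 6984, 5625, 6259 and 7586 in wild-type ISP8 cells, against 4172, 6093, 6384 and 7666 in wild-type DN3 cells. This probe set rose by 0.31 ± 0.075 (adjusted p = 0.00571, limma) in PKBα-/- mice, without overlap, and had a change of 0.15 ± 0.12 (adjusted p = 0.432) in wild-type mice. The weaker *Cbl* probe set, at 73.5 to 208, had changes of 0.71 and 0.53 (adjusted p = 0.0676 and 0.141). With the 3 averaged, *Cbl* had changes of 0.35 in PKBα-/- (adjusted p = 0.0102) and 0.10 in wild-type mice (adjusted p = 0.476), and its probe sets shared no direction in wild-type mice.

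**Figure D2:**
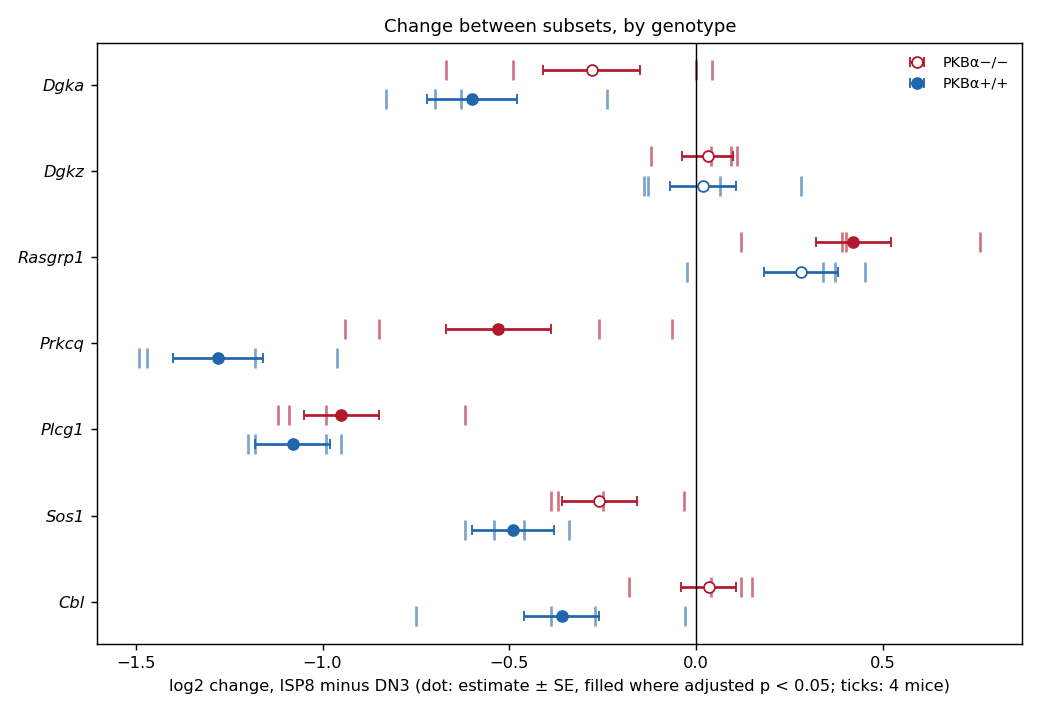
Log2 change from DN3 to ISP8 cells (horizontal axis, ISP8 minus DN3) for the 7 genes, PKBα-/- in red above PKBα+/+ in blue. Dots are limma estimates with SE, filled where the adjusted p was under 0.05, and ticks are the 4 mice of a genotype. For *Prkcq* the nearest ticks of the genotypes are at -0.94 (PKBα-/-) and -0.96 (PKBα+/+), and for *Plcg1* the ticks overlap.

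Start sites of the 7 genes were read to set beside these changes the sequence before the genes that moved in PKBα-/- mice, since E proteins, which bind an E-box, act at β-selection and PKB acts on FOXO factors. The windows hold the 250 bases before a RefSeq transcript start (build GRCm38.p6), shown 5′ to 3′ on the strand of the gene with CAGGTG or its reverse complement CACCTG in capitals. They come from chr2:160731060-160731309 (+ strand) for *Plcg1*, chr2:11172132-11172381 (+ strand) for *Prkcq* and chr2:117342878-117343127 (- strand) for *Rasgrp1*.
Plcg1: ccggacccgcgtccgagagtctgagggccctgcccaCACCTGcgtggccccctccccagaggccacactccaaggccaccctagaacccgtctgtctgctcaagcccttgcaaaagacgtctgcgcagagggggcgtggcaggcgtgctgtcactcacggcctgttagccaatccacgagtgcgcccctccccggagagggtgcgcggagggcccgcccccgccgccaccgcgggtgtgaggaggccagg
Prkcq: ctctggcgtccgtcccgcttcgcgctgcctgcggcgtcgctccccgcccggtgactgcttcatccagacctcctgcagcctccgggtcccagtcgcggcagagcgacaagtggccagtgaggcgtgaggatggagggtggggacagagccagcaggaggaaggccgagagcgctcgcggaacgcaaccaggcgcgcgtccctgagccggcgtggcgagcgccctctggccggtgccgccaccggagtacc
Rasgrp1: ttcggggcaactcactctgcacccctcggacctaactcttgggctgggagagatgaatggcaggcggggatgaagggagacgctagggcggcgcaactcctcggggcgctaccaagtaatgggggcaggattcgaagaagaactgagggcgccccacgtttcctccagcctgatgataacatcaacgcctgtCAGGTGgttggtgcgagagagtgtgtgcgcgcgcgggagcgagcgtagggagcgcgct
The *Plcg1* window, of a gene that fell, and the *Rasgrp1* window, of a gene that rose, each hold 1 match, and the *Prkcq* window holds none. CAGGTG was also found in 1 of 2 *Dgkz* windows but in none of the *Dgka*, *Sos1* and *Cbl* windows, and 17.2% of 32851 mouse windows of this length hold it. The FOXO letters GTAAACA (3.17% of all windows, both strands) and the AP-1 letters TGACTCA (4.46%) were not among the letters of the 11 windows of the 7 genes. *Plcg1*, *Prkcq*, *Rasgrp1* and *Dgkz* all lie on chromosome 2, *Cbl* on chromosome 9, *Dgka* on chromosome 10 and *Sos1* on chromosome 17.

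Between genotypes, none of the 7 genes passed in either subset, beside 0.0206% of all genes called in ISP8 and 0.0555% in DN3 cells (limma), and 4 of 7 were under an unadjusted p of 0.05 in ISP8 and 0 in DN3 cells, beside 6.53% and 5.11% of all genes. In ISP8 cells *Dgka*, *Prkcq*, *Rasgrp1* and *Cbl* had higher values in the PKBα-/- mouse of 4 of 4 pairs at their representative probe sets, with an adjusted p of 0.592 or more at every probe set. The other *Cbl* probe sets had ISP8 changes of 0.10 (1434829_at, higher in 2 of 4 pairs) and -0.16 (1450457_at, higher in 1 of 4). Those of *Rasgrp1* had 0.20 (1431749_a_at, higher in 3 of 4), -0.094 (1450143_at, 1 of 4) and 0.23 (1421176_at, 4 of 4). The median change of the 7 genes was 0.26 in ISP8 cells, against 0.006 over all genes, and -0.072 in DN3 cells, against -0.007. These counts and medians can follow from how the 7 genes were chosen and are a description. The ISP8 groups of both genotypes also serve in the changes between subsets above, and these comparisons share arrays.

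*Dgka* in ISP8 cells stood 0.40 ± 0.10 higher in PKBα-/- than in wild-type mice on the log2 scale (95% interval 0.18 to 0.63, unadjusted p = 0.00209, adjusted p = 0.592, limma), or 1.32-fold, and its mean was 1812 ± 417 in PKBα-/- and 1364 ± 266 in wild-type cells (SD, n = 4). The pairs gave 0.27, 0.50, 0.23 and 0.61, although the group ranges overlapped. In DN3 cells, where *Dgka* averaged 2160 ± 149 in PKBα-/- and 2053 ± 274 in wild-type mice, the change was 0.079 (95% interval -0.13 to 0.28).

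*Prkcq* had fitted changes of opposite sign in the subsets, neither of which passed. In ISP8 cells it averaged 1861 ± 463 in PKBα-/- and 1317 ± 207 in wild-type mice, with pairs at 1.01, 0.41, 0.50 and 0.003 and a change of 0.48 ± 0.14 (unadjusted p = 0.00407, adjusted p = 0.667, limma). In DN3 cells it averaged 2640 ± 313 in PKBα-/- and 3247 ± 804 in wild-type mice, with pairs at -0.39, -0.82, 0.39 and -0.25 and a change of -0.27 ± 0.13 (unadjusted p = 0.0597, adjusted p = 0.972). The 5-week pair did not differ in ISP8 cells, and the 2-week pair ran against the other three in DN3 cells, without which the DN3 change was -0.49 (adjusted p = 0.103). Without the 3-week male pair the DN3 change was -0.082 (adjusted p = 0.972), and without the 3-week female pair the ISP8 change was 0.30 (adjusted p = 0.915). The test of the difference between the subset effects gave 0.75 ± 0.20 (95% interval 0.33 to 1.16, unadjusted p = 0.00159, adjusted p = 0.961, limma). It took mice as blocks and left out the littermate pairing. By pair the difference was 1.40, 1.24, 0.11 and 0.25, positive in 4 of 4, and the interval does not measure the spread of these pairs. In that comparison 0% of all genes were called. At an unadjusted p of 0.05, 1750 of 36835 probe sets were below the limit in that comparison.

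*Rasgrp1* averaged 4471 ± 210 in PKBα-/- and 3749 ± 354 in wild-type ISP8 cells. Its change of 0.26 ± 0.082 (unadjusted p = 0.00766, adjusted p = 0.753, limma) came from pairs at 0.41, 0.31, 0.24 and 0.074, and the highest wild-type value, 4274 in the 5-week mouse, lay inside the PKBα-/- range. In DN3 cells *Rasgrp1* averaged 3368 ± 445 in PKBα-/- and 3097 ± 448 in wild-type mice, a change of 0.12 (95% interval -0.085 to 0.33).

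*Cbl* at its representative probe set had a change of 0.26 ± 0.11 in ISP8 cells (unadjusted p = 0.0347, adjusted p = 0.803, limma) and of -0.14 ± 0.067 in DN3 cells (unadjusted p = 0.0521, adjusted p = 0.972). The DN3 value was lower in the PKBα-/- mouse of 4 of 4 pairs, at -0.13, -0.11, -0.12 and -0.19, and the ISP8 value rested on the 3-week male pair at 0.78, without which it was 0.080. The difference of the effects was 0.39 ± 0.14 (unadjusted p = 0.0117, adjusted p = 0.961), and at the probe set 1434829_at it was 0.17 ± 0.16 (adjusted p = 0.966).

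*Plcg1*, *Dgkz* and *Sos1* had an adjusted p of 0.854 or more in ISP8 cells at their representative probe sets. The ISP8 changes were 0.14 (95% interval -0.10 to 0.38), -0.058 (-0.20 to 0.080) and 0.10 (-0.13 to 0.33), and the DN3 changes were 0.014 (-0.16 to 0.18), -0.072 (-0.23 to 0.085) and -0.13 (-0.34 to 0.073). For *Plcg1* the 3-week female pair alone gave 0.52 in ISP8 cells, with 0.16, -0.063 and -0.047 in the other pairs.

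**Figure D3:**
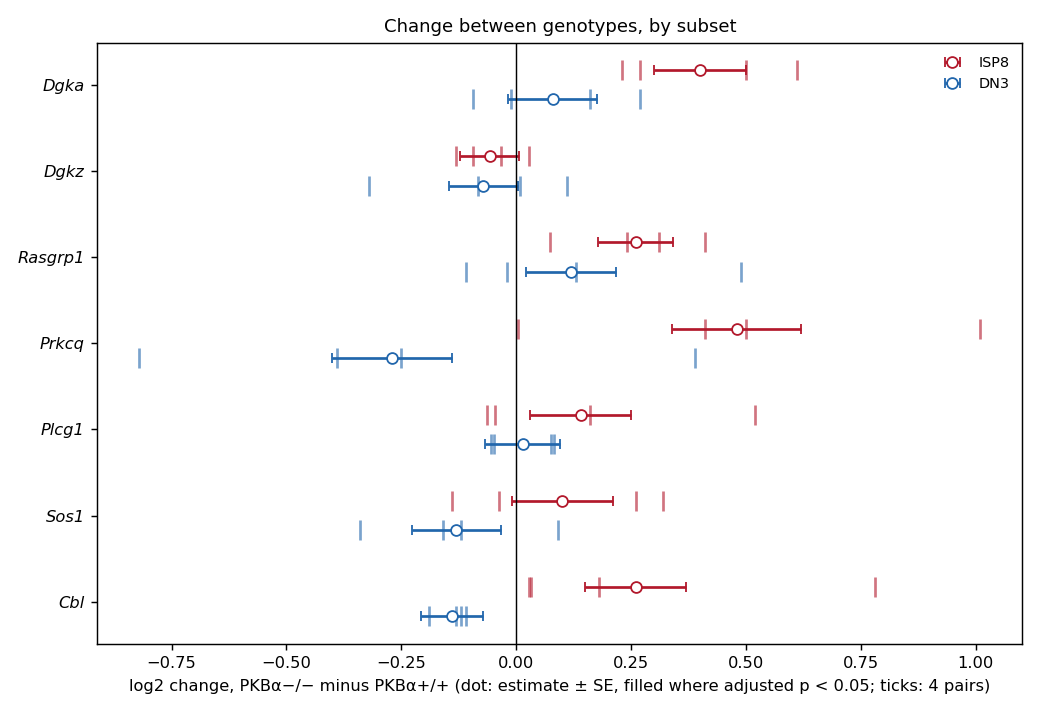
Log2 change between genotypes (horizontal axis, PKBα-/- minus PKBα+/+) for the 7 genes, ISP8 in red above DN3 in blue. Dots are limma estimates with SE, and all are open because no adjusted p was under 0.05, and ticks are the 4 littermate pairs. *Prkcq* has 0.48 in ISP8 and -0.27 in DN3 cells.

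Markers of the DN3 stage stand beside these ISP8 values. All 7 DN3 genes had positive PKBα-/- changes in ISP8 cells, from 0.087 for *Notch1* to 0.85 for *Dtx1*, a Notch target. Their median was 0.32, against 0.006 over all genes. Of the 7, 0 passed and 3 had an unadjusted p under 0.05 (limma), beside 6.53% of all genes. The authors had listed *Notch3* and *Dtx1* as higher in PKBα-/- ISP8 cells on these arrays. This list was chosen with earlier results known, so its counts are a description. Summed over the 7, ISP8 cells had 31133 to 35929 units in PKBα-/- and 25979 to 33319 units in wild-type mice, while DN3 cells had 65800 to 69960 and 64266 to 75039 units in mice of these genotypes. Most of the ISP8 sum came from *Rag1*, at 13092 in PKBα-/- and 11172 in wild-type mice, and *Notch1*, at 14792 and 13985. *Il2ra*, which encodes CD25, averaged 258 ± 144 in PKBα-/- and 185 ± 74.5 in wild-type ISP8 cells, against 8905 and 8133 in DN3 cells. *Rasgrp1* was higher in ISP8 than in DN3 cells on average in both genotypes, whereas *Dgka* and *Prkcq* were lower. The part of the DN3 markers in the values of the 7 genes was not tested.

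Some levels also followed the litter. Both strong *Cbl* probe sets and the weaker *Dgkz* probe set were highest in the 5-week female mice in 4 of 4 groups, and *Dgka* and the strong *Dgkz* probe set were highest there in 3 of 4. Over 15574 genes, 1.98% were highest in that pair in all 4 groups, and 4.85% were highest in any 1 pair in all 4. Age, sex and litter cannot be told apart in this pair.

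The pathway around the 7 genes was read from 79 other genes in 9 lists. Between genotypes none of them passed, among 73 tested in ISP8 and 75 in DN3 cells, with 10 and 4 under an unadjusted p of 0.05 (limma), beside 6.53% and 5.11% of all genes. Between subsets, 12 rose and 19 fell of 74 tested in PKBα-/- mice, with a median of -0.073, and 12 rose and 22 fell of 72 in wild-type mice, with a median of -0.16. Over all genes 14.2% rose and 19.1% fell in PKBα-/- mice, and 14.1% rose and 19.8% fell in wild-type mice. The lists were drawn up with results of these arrays known, and 11 further genes of the lists were not analysed here.

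Among the other enzymes of diacylglycerol, 4 kinases were tested. *Dgkd*, which encodes DGKδ, averaged 1367 ± 81.4 in PKBα-/- and 947 ± 149 in wild-type ISP8 cells, and 671 ± 63.9 in PKBα-/- and 700 ± 131 in wild-type DN3 cells. It rose by 1.03 from DN3 to ISP8 cells in PKBα-/- mice (adjusted p = 2.0e-05, limma) and had a change of 0.44 in wild-type mice (adjusted p = 0.0836), and its genotype change in ISP8 cells was 0.54, higher in 4 of 4 pairs (unadjusted p = 3.0e-04, adjusted p = 0.308). *Dgke* fell by 0.53 in wild-type mice and had a change of -0.21 in PKBα-/- mice. Of the other phospholipases C, *Plcb2* (-1.66 in PKBα-/- and -2.32 in wild-type mice), *Plcg2* (-1.06 and -0.83), the isoform best known from B cells, and *Plcb4* (-0.58 and -0.45) fell in both genotypes. *Plcl2*, which encodes a relative without catalytic activity, rose (1.49 and 1.51).

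The protein kinase C family changed in both directions. *Prkca* had 784 ± 74.1 units in PKBα-/- and 841 ± 277 in wild-type ISP8 cells, against 2545 ± 201 and 2524 ± 474 in DN3 cells of the same genotypes, and fell (-1.70 and -1.63). *Prkch* fell (-1.23 and -1.22), as did *Prkcd* (-0.79 and -0.68), while the atypical *Prkci* rose (0.55 and 0.76). *Prkcq* in PKBα-/- mice, at -0.53, had a smaller fitted fall than *Prkca*, *Prkch* and *Prkcd*. In wild-type mice, at -1.28, it lay beside *Prkch*.

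Of the Ras exchange factors and adaptors, *Rasgrp2*, which acts on Rap, rose by 0.64 in PKBα-/- and 0.87 in wild-type mice, and *Rasgrf2* fell (-1.64 and -1.69). *Rasgrp3* passed as higher and *Rasgrf1* as lower in wild-type mice, but at group means of at most 52.3, so that no fold is given. *Sos2*, the paralog of *Sos1*, averaged 728 ± 113 in PKBα-/- and 777 ± 167 in wild-type ISP8 cells, against 1290 ± 253 and 1229 ± 92.9 in DN3 cells, with changes of -0.82 and -0.69 that both passed, and was picked out after its values were seen. Among the GTPases, *Rras2* fell (-1.18 and -1.03), and *Rap1a* (0.28 and 0.46) and *Rap1b* (0.22 and 0.31) rose in both genotypes, with *Rap2a* (0.53) in wild-type mice.

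Proteins that restrain Ras and ERK were also divided. *Rasal3*, a T cell Ras GTPase activating protein, fell (-0.87 in PKBα-/- and -1.25 in wild-type mice), and *Rasa2* rose (0.74 and 0.79). *Rasa4* passed as lower in both genotypes, at means near the filter value of 20 in ISP8 cells (25 in PKBα-/- and 12 in wild-type mice), against 245 and 163 in DN3 cells, and *Dab2ip* rose by 1.28 in PKBα-/- mice. The ERK phosphatase gene *Dusp5* fell (-1.19 and -1.17), with the ERK pathway inhibitor genes *Spry1* (-1.01 and -1.06) and *Spry2* (-2.40 and -1.94), whereas *Spred2* rose (0.73 and 0.71). Of 7 genes of the kinase cascade tested, *Map2k1* (-0.31) passed in PKBα-/- mice and *Araf* (-0.65) and the scaffold gene *Lamtor3* (0.45) in wild-type mice.

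The relative of *Cbl* had larger changes than *Cbl* itself. *Cblb*, a ubiquitin ligase that limits T cell activation, averaged 774 ± 172 in PKBα-/- and 784 ± 110 in wild-type ISP8 cells, against 3070 ± 374 and 3074 ± 674 in DN3 cells, with log2 changes of -2.0 and -1.96 (adjusted p = 6.8e-08 and 7.9e-08, limma). *Sla*, which encodes the adaptor SLAP that brings CBL to the TCR, rose (1.67 and 1.62), to means of 11602 in PKBα-/- and 11567 in wild-type ISP8 cells, against 3643 and 3747 in DN3 cells. *Sla2* fell (-0.67 in both genotypes), as did *Ubash3a*, a phosphatase-like CBL partner, in wild-type mice (-0.62).

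**Figure D4:**
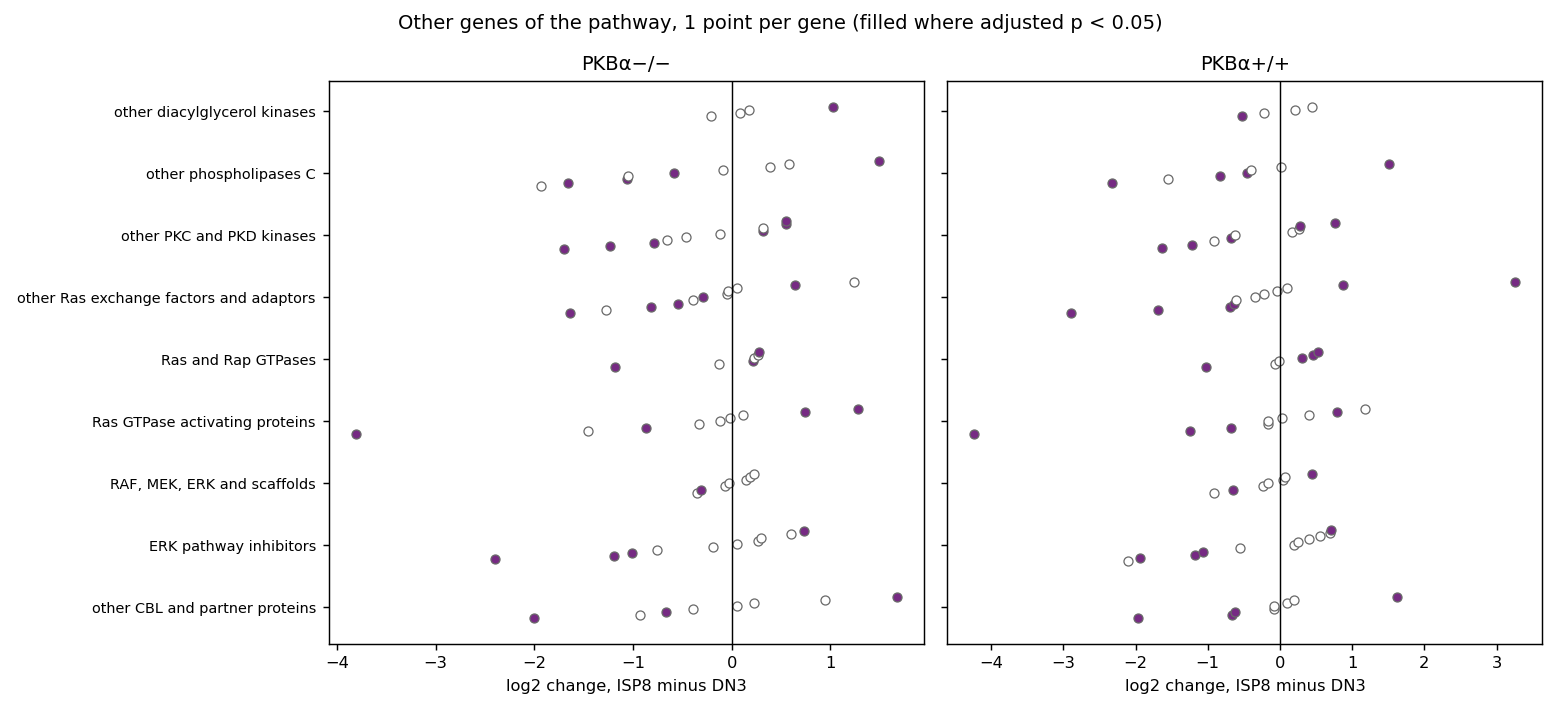
Log2 change from DN3 to ISP8 cells (horizontal axis, ISP8 minus DN3) of the other pathway genes, by list, PKBα-/- at left and PKBα+/+ at right. Each point is a gene, filled where the adjusted p was under 0.05. In PKBα-/- mice 12 of 74 rose and 19 fell, and in wild-type mice 12 of 72 rose and 22 fell.

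Across the 16 arrays, the genes with the pattern most like each of the 7 were sought among 15574 genes by Pearson's r of log2 values, as a description of arrays that fall into 2 subsets and share mice. *Plcg1* was closest to *Dpp4* (r = 0.986) and *Cd93* (0.983), which had changes of -1.53 and -2.70 from DN3 to ISP8 cells in PKBα-/- mice and of -1.60 and -2.74 in wild-type mice. *Prkcq* was closest to *Crebbp* (0.941) and *Tapt1* (0.940), *Sos1* to *Ube3a* (0.927) and *Fgfr1op2* (0.921), and *Cbl* to *Sbno1* (0.912) and *Rest* (0.862). For *Dgka* the closest were *Tgfb1i1* (0.890) and *Inpp5k* (0.889), for *Rasgrp1* *Rcc2* (0.884) and *Phf2* (0.880), and for *Dgkz*, which varied little, *Fryl* (0.836) and *Cmip* (0.776).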

How the data were processed

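RNA of sorted DN3 and ISP8 thymocytes was amplified in 2 cycles and hybridised to mouse genome 430 2.0 arrays. The authors computed linear GC-RMA intensity values with Refiner 3.1, which correct for background and normalize arrays to each other, and these deposited values were used as they are, after log2 transformation. The platform annotation gives 34958 probe sets 1 gene symbol, 932 several and 9211 none. Genes and lists were chosen with earlier results of these data known. One list of pathway genes is not reported here.

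limma 3.58.1 (R 4.3.3) was fitted with eBayes and trend to all probe sets above 20 in at least 1 array of a block in at least 3 of 4 blocks. Blocks were littermate pairs, which the labels name, between genotypes, and mice between subsets and for the difference of effects. The difference of effects was thus fitted without the littermate pairing. Deviations of littermates correlated with r of 0.0807 to 0.194 in ISP8 and 0.337 to 0.4 in DN3 cells, and those of other mice with r of up to 0.0708. The Benjamini-Hochberg adjustment ran over all probe sets tested, and the fit was first tested on simulated data. With 4 mice a group, precision is limited by their number. Named genes are the 7, up to 4 per list that passed between subsets by size of change, and the 2 most like each. Filters, an added constant, quantile normalization, robust moderation, no block, left-out pairs, the mean of a gene's probe sets and the methods' t-test were tried as alternatives. Plots used matplotlib 3.10.9 (Python 3.11.15).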

Additional observations from a re-analysis of the deposited data

Results flagged for a closer look

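Of 72 groups of 4 mice, over 18 probe sets of the 7 genes, 7 held a mouse whose gap to the nearest of the others was large against the range of the group, and chance gives about 1 in 20. At representative probe sets these were the *Rasgrp1* value of 4274 in the 5-week wild-type ISP8 sample, with the others at 3535 to 3651, and the *Sos1* value of 1338 in the 2-week PKBα-/- ISP8 sample, with the others at 1850 to 1976. The rest were at weak probe sets. *Sos1* 1421885_at read 64.6 in the 3-week male wild-type ISP8 sample (others 128 to 146) and 88.8 in the 2-week wild-type DN3 sample (others 168 to 191). In the 2-week PKBα-/- DN3 sample *Sos1* 1421886_at read 22.5 (others 51.8 to 55.4) and 1431311_at read 1.84 (others 25 to 39.8). *Cbl* 1450457_at read 114 in the 3-week female PKBα-/- ISP8 sample (others 163 to 175).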

How the results depend on the processing

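Of 385 recomputed changes of the 7 genes, 357 kept their direction and their side of the threshold, 18 turned direction, 7 lost a call and 3 gained one, and the cause was not tested. With all probe sets of a gene averaged, which adds weak probe sets, *Sos1* turned to 0.13 between genotypes in DN3 cells, to 0.14 between subsets in both genotypes and to -0.003 for the difference of effects, *Cbl* to 0.10 between wild-type subsets, and *Dgkz* to 0.019 between genotypes in ISP8 cells and -0.10 between wild-type subsets. Under quantile normalization *Dgkz* turned to -0.12 in PKBα-/- and -0.19 in wild-type mice and *Cbl* to -0.10 in PKBα-/- mice between subsets. With a pair left out, *Dgkz* ran from -0.13 to 0.011 between genotypes in DN3 cells, from -0.070 to 0.069 between wild-type subsets and from -0.057 to 0.099 for the difference. *Rasgrp1* ran from -0.001 to 0.20 and *Plcg1* from -0.009 to 0.036 (-0.007 without the 2-week pair) between genotypes in DN3 cells, *Plcg1* from -0.018 to 0.22 for the difference, and *Cbl* from -0.005 to 0.10 between PKBα-/- subsets. Only the changes of *Cbl* and *Sos1* between wild-type subsets had been called among those that turned. The *Dgka* call between wild-type subsets, the *Rasgrp1* call between PKBα-/- subsets and the *Prkcq* call between wild-type subsets held in 11 of 11 alternatives.

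The count of probe sets called between genotypes moved more. In DN3 cells it was 13, and 8 with no filter, 27 with an added constant of 20, 1 with no replicate block and 11 to 45 with a pair left out. In ISP8 cells it was 5, and 3 with no filter, 1 with a filter at 100, 2 with no replicate block and 1 to 11 with a pair left out. The methods' t-test, run here without the authors' detection call, took 521 probe sets in ISP8 and 458 in DN3 cells, and 0 in both after Benjamini-Hochberg adjustment. These counts are therefore not those of the authors' own lists. Between subsets 9556 probe sets were called in PKBα-/- and 9968 in wild-type mice, and 8559 and 8383 without the replicate block, which ended no other call of the 7 genes than that of *Cbl*. The difference of effects gave 0 under every alternative run. Low signal limits the 10 probe sets with values under 250, and 4 pairs limit the genotype comparisons.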
